A study of Rattus norvegicus with 15 samples.

Results

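The genes described here encode the enzymes and binding proteins with which cells remove peroxides, superoxide and electrophiles. They comprise the soluble glutathione transferases, glutathione peroxidases, peroxiredoxins, thioredoxins with thioredoxin-domain proteins, superoxide dismutases, catalase, the enzymes of glutathione synthesis and reduction, Nrf2 with haem oxygenases and a quinone reductase, and metallothioneins. Members were taken by gene symbol from the platform's probe-to-gene table, as probe sets that carry 1 symbol of these families. The rule found 70 probe sets of 63 genes among 31042 probe sets, of which 20826 carried 1 symbol and stood for 14217 genes.

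Expression was measured in whole testes of LBNF1 rats, a laboratory hybrid strain, aged 25 to 27 weeks, on Affymetrix arrays hybridised with biotin-labelled cRNA. There were 5 arrays of irradiated testes, from rats given 6 Gy to the lower abdomen, and 10 arrays of control testes, which the source field places before irradiation. The arrays are called biological replicates, but no label says that each came from its own rat. The p-values below therefore reflect variation among arrays, which may be technical. How long after irradiation the testes were taken is not stated in the labels.

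As background, superoxide dismutases turn superoxide into hydrogen peroxide. Catalase then breaks down hydrogen peroxide. Glutathione peroxidases and peroxiredoxins reduce peroxides, drawing electrons from glutathione or thioredoxin, which glutathione reductase and thioredoxin reductases restore with NADPH. Glutathione transferases join glutathione to lipid aldehydes and foreign compounds. Nrf2 is the transcription factor that induces many of these genes. In the testis, developing sperm rely on several special forms, and the selenoprotein Gpx4 becomes a structural component of the sperm midpiece.

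Whole testes mix germ cells with Sertoli, Leydig, peritubular and immune cells, so fewer cells of a type and less RNA per cell cannot be told apart. All 11 spermatid markers and all 7 spermatocyte markers on the array fell. The summed linear signal of the spermatid markers was 1.13 to 3.81 in irradiated arrays and 330.4 to 501.0 in control arrays, and that of the spermatocyte markers was 0.979 to 1.24 in irradiated arrays and 82.5 to 120.6 in control arrays. In every irradiated array 7 of 7 spermatocyte and 8 of 11 spermatid markers, among them Sycp3 and Tnp2, lay below the array's median signal, which is called dim here. Markers of the somatic cells rose in 13 of 14 for Sertoli cells, where Rhox5 fell, and in 7 of 7 for Leydig cells, 8 of 8 for macrophages and 5 of 5 for peritubular cells. Their summed signals were 123.9 to 170.0, 71.8 to 91.1, 18.5 to 21.4 and 14.4 to 20.7 in irradiated arrays, against 26.6 to 34.8, 6.03 to 8.93, 2.40 to 3.44 and 5.36 to 7.52 in control arrays. Dim in every control array were Gdnf and Testin of the Sertoli list, Cd163, Cd68, C1qb and Ptprc of the macrophage list, and Tagln and Cnn1 of the peritubular list, and Gdnf and Rhox5 were dim in every irradiated array. Of 5 liver markers 3 fell, all of them dim in every irradiated array, with sums of 0.995 to 1.29 in irradiated and 1.16 to 1.68 in control arrays. Of 2 epididymal markers, Adam7 and Cst11, both dim in every irradiated array, Cst11 fell, itself dim in every control array too, with sums of 0.361 to 0.465 in irradiated and 0.251 to 0.727 in control arrays. The part of these shifts in the changes below was not tested.

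Irradiated testes had higher signals of most antioxidant genes and lower signals of a smaller set. The 70 probe sets held 44 that rose and 12 that fell, against 37.8% and 29.0% of all probe sets (66.8% in either direction). Of the 63 genes, each represented by its probe set with the highest mean over all arrays, 41 rose, 12 fell and 10 did not pass an adjusted p of 0.05 (limma). Over all genes on the array 75.1% passed, 40.7% higher and 34.4% lower, against 84.1% of these genes, 65.1% higher and 19.0% lower. Without control replicates 6, 7 and 8, whose 3' to 5' actin differences, a measure of RNA integrity, were 1.89, 1.37 and 1.44 log2 units, 40 rose and 12 fell. That difference was 0.90 to 1.16 in irradiated arrays and 0.65 to 1.89 in all control arrays.

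The median log2 change, irradiated minus control, was 1.05 over the 63 genes and 0.08 over all genes, a distance of 0.97. The median of all genes turned to -0.08 when arrays were centred on their medians and to -0.12 after quantile normalization, and the distance was then 0.97 and 0.91. With signals raised to the array median the genes' median was 0.81, that of all genes 0.16 and the distance 0.66. That 0.16 equals the difference between the groups' array medians, which raising gives to any gene dim in every array. In 48 of the genes (76.2%) the 5 irradiated arrays all lay on 1 side of the 10 control arrays, against 57.1% of all genes. They lay above in 38 and below in 10, against 33.3% and 23.8% of all genes. Changes of at least 8-fold in the measured means were found in 8 higher and 4 lower genes, or 12.7% and 6.35%, against 3.86% and 5.87% of all genes. With signals raised to the array median 7 of the 8 stayed at least 8-fold higher, all but Gstm4. Both groups' means lay above the array median in 45 genes. In 11 genes 1 group's mean lay below it, so the change is given as "at least", and 7 had both means below it and no size of change is given.

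**Figure D1:**
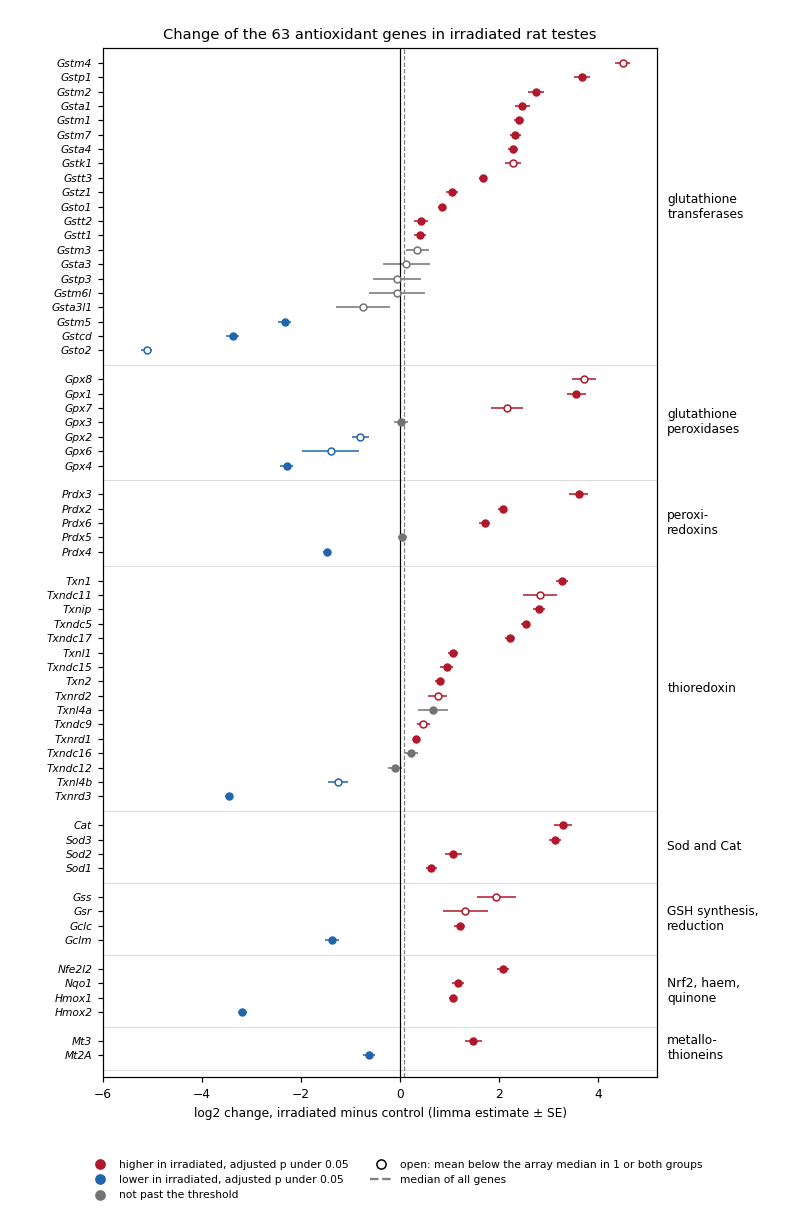
Log2 change (irradiated minus control, limma estimate ± SE) of the 63 genes by family. Points right of 0 are higher in irradiated testes, and each family except superoxide dismutases and catalase has genes on both sides that passed the threshold. Open points mark genes whose mean lay below the array median in 1 or both groups, and the dashed line is the median of all genes at 0.08.

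**Figure D2:**
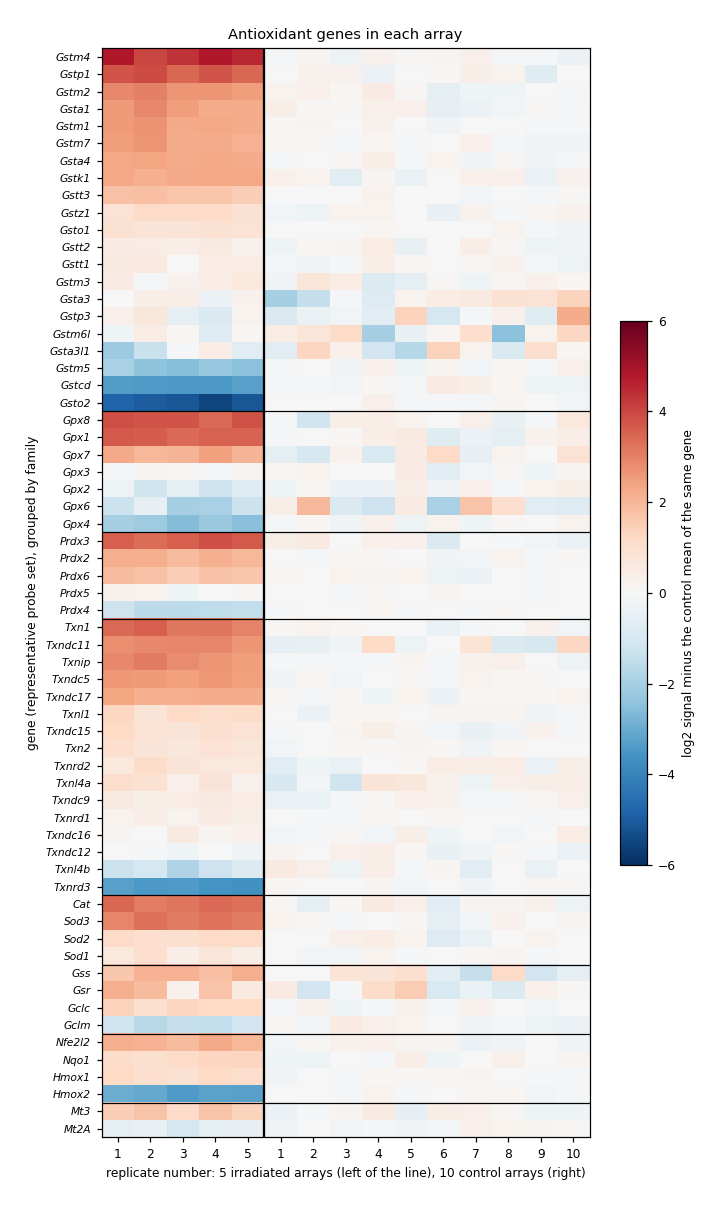
Log2 signal of each gene in each array minus that gene's control mean, with 5 irradiated arrays left of the line and 10 control arrays right of it. Gsto2, Txnrd3, Gstcd and Hmox2 are deep blue in all 5 irradiated arrays, while Gsta3, Gstp3, Gstm6l and Gsta3l1, which are low in both groups, vary among control arrays.

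Glutathione transferases, which conjugate glutathione to electrophiles, rose in 13 of 21 genes and fell in 3, with a median change of 0.85. Among those measured in both groups, members of the alpha, mu and pi classes had the largest rises. Gstp1 (1388122_at), the pi-class enzyme, had log2 signals of 3.92, 4.08, 3.58, 3.93 and 3.60 in irradiated testes, against a lowest, median and highest of -0.59, 0.19 and 0.49 in control testes. Every irradiated array lay above every control array, by a mean change of 3.67 ± 0.17 (SE), or 12.8-fold (adjusted p = 1.45e-11). The mu-class genes Gstm2, Gstm1 and Gstm7 changed by 2.75, 2.41 and 2.33, and the alpha-class genes Gsta1 and Gsta4 by 2.47 and 2.29. Gsta4, known for its action on the lipid peroxidation product hydroxynonenal, was 3.22 ± 0.05 in irradiated (SD, n = 5) and 0.93 ± 0.20 in control testes (SD, n = 10). Gstk1, the mitochondrial and peroxisomal kappa form, was dim in every control array and at least 3.35-fold higher.

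Gstm4 (1375909_at) was dim in every control array, with values of -5.52 to -4.83, and lay at -0.37, -1.13, -0.82, -0.35 and -0.61 in irradiated testes. The groups were far apart in measured values, but the irradiated signal was only a little above the array median, which bounds the rise at 1.76-fold or more (adjusted p = 3.64e-13). Smaller rises were found for Gstt3 (1.68), Gstz1 (1.05), Gsto1 (0.85), Gstt2 (0.42) and Gstt1 (0.41). Those of Gstt1 and Gstt2 did not pass after quantile normalization (0.04 and 0.05, adjusted p = 0.780 and 0.751) or centring (0.25 and 0.26, adjusted p = 0.0878 and 0.118). With the replicate block their adjusted p-values were 0.0688 and 0.0539. Gsta3, Gsta3l1, Gstm3, Gstm6l and Gstp3 had means below the array median in both groups and did not pass.

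The 3 transferase genes that fell were Gsto2, Gstcd and Gstm5. Gsto2 (1384493_at), an omega-class enzyme that reduces dehydroascorbate, had signals of -1.06, -1.22, -1.37, -1.73 and -1.39 in irradiated testes, against 3.61, 3.73 and 4.06 (lowest, median, highest) in control testes. All irradiated values lay far below all control values, 3 of 5 were under the array median, and the fall was at least 32.2-fold (adjusted p = 3.29e-15). Gstcd (1382062_at), a protein with a transferase-like C-terminal domain, had values of -1.18, -1.26, -1.29, -1.31 and -1.09 in irradiated and 1.86, 2.06 and 2.67 in control testes, a change of -3.38 ± 0.13. Gstm5 (1370813_at), a mu-class form known in mouse from testis and brain, had 3.56, 3.07, 2.95, 3.21 and 3.05 in irradiated and 5.23, 5.45 and 5.82 in control testes, a change of -2.33 ± 0.13 (adjusted p = 1.61e-10). Neither gene's groups overlapped.

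Several of these genes lie next to each other in RefSeq's gene order, and neighbours did not always change alike. With at most 1 other protein-coding gene between them, 18 of the genes formed 7 runs of neighbours. In 3 of these runs 1 gene rose while another fell. They were Gsto1 (0.85) beside Gsto2 (-5.11), Gstm7 (2.33) in a run with Gstm5 (-2.33), and Mt3 (1.48) beside Mt2A (-0.63). In contrast Gstm1, Gstm2 and Gstm4, which form a run with Gstm3, all rose. Probe sets of such closely related genes can share hybridising sequence, and how far that affected these signals was not tested.

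The promoters of these 3 pairs are shown because the paired genes went opposite ways. Each window spans 250 bases before to 50 bases after the gene's start, on the gene's strand, from RefSeq's table for GRCr8. The windows are chr1:256662281-256662580 (+) for Gsto1, chr1:256673126-256673425 (+) for the most upstream start of Gsto2, chr2:198219519-198219818 (+) for Gstm5, chr2:198260270-198260569 (-) for Gstm7, chr19:10838659-10838958 (-) for Mt2A and chr19:10856031-10856330 (-) for Mt3. Capitals mark matches, on either strand, to the antioxidant response element core TGACNNNGC, the site type bound by Nrf2, or to the metal response element core TGCACNC or TGCGCNC, the site type of metallothionein genes.
Gsto1: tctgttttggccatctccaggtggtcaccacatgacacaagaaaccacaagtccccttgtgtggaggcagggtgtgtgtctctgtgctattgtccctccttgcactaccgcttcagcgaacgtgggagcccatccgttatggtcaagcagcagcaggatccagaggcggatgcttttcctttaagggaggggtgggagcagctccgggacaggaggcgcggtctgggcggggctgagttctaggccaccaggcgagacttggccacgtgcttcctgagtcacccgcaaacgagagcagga
Gsto2: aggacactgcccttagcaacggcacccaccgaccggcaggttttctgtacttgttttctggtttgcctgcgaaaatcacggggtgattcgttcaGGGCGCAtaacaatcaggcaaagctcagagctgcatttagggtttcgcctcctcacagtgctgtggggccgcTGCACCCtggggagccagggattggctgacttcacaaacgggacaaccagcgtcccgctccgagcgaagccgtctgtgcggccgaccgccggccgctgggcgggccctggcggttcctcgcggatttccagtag
Gstm5: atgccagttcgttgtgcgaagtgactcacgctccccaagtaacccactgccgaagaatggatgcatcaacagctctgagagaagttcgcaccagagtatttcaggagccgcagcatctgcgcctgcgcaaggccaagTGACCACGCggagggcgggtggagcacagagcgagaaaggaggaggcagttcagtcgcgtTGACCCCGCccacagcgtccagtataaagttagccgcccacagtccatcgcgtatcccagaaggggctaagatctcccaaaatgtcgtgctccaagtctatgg
Gstm7: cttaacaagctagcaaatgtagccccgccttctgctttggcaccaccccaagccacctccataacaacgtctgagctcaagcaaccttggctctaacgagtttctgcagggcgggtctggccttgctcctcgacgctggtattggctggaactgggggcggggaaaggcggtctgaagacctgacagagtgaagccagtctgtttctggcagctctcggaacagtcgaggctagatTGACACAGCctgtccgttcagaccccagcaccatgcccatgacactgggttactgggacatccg
Mt2A: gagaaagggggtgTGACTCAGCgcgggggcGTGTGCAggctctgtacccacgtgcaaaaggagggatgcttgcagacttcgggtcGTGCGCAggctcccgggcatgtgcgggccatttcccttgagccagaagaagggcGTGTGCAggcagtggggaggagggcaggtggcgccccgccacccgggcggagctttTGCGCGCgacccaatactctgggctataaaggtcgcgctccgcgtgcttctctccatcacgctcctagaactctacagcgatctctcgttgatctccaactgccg
Mt3: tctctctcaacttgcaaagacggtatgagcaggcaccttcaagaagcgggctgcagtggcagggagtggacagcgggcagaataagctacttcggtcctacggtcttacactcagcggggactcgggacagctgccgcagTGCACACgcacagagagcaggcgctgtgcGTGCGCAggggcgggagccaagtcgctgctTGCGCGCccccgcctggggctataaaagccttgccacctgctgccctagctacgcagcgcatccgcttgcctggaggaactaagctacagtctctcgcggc

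The antioxidant core stood at 2 places in the Gstm5 window, 1 in that of Gstm7 and 1 in that of Mt2A. Metal response cores stood at 4 places for Mt2A, 3 for Mt3 and 2 for Gsto2, and the Gsto1 window held neither. Windows were found for 54 of the 63 genes, 60 in all since 5 genes had several starts. The antioxidant core was in at least 1 window of 20 of these 54 genes (37.0%), against 13.1% of the 27457 genes in the table. It was in 10 of 33 genes that rose (30.3%), 8 of 12 that fell (66.7%) and 2 of 9 that did not pass. The metal core was in 15 of the 54 (27.8%), against 26.3% in the table, and in 7 of 33 genes that rose (21.2%), 6 of 12 that fell (50%) and 2 of 9 that did not pass. The cAMP response element TGACGTCA, read the same on both strands, was in 1, Txnl1 (1.85%), against 2.00%. No match of 1 motif overlapped one of another in these genes, and a match is a run of letters, not a shown binding site.

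Glutathione peroxidases, which reduce peroxides with glutathione, were higher in 3 of 7 genes (42.9%) and lower in 3 (42.9%), and 1 did not pass. These shares are near those over all genes, 40.7% higher and 34.4% lower. Of the 3 lower genes, only Gpx4 had both means above the array median. Gpx1 (1367576_at), the cytosolic selenoenzyme, had 2.52, 2.47, 2.24, 2.40 and 2.37 in irradiated testes, against -1.89, -1.12 and -0.62 (lowest, median, highest) in control testes. The groups were separate, with a change of 3.56 ± 0.19 or 11.8-fold (adjusted p = 1.51e-10). Gpx8 and Gpx7, forms of the endoplasmic reticulum, had control means below the array median and were at least 9.16-fold and 1.94-fold higher. Gpx3, the secreted plasma form, averaged -0.25 ± 0.15 in irradiated and -0.28 ± 0.30 in control testes, and its change of 0.02 ± 0.15 did not pass (adjusted p = 0.901).

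Gpx4 (1386871_at), which reduces lipid peroxides in membranes and builds the sperm midpiece, went the other way. Its values were 3.51, 3.39, 2.92, 3.29 and 3.01 in irradiated testes, against 5.23, 5.54 and 5.80 in control testes. No irradiated array reached the control range, and the change was -2.29 ± 0.13, or 4.89-fold lower (adjusted p = 2.18e-10). Gpx2, the gastrointestinal form, was dim in every irradiated array and at least 1.22-fold lower, with overlapping groups. Gpx6, known from olfactory tissue in mouse, was dim in all 15 arrays, so its fall (adjusted p = 0.0436) has no size. Its call was lost after quantile normalization (adjusted p = 0.0760), without any 1 of 4 irradiated arrays (all but replicate 2) and without control replicate 1, 2, 5, 7 or 8, with adjusted p-values of 0.0612 to 0.100.

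Peroxiredoxins, thiol peroxidases mostly fed by thioredoxin, rose in 3 of 5 genes and fell in 1. Prdx3 (1367591_at), the mitochondrial form, had 2.47, 2.23, 2.47, 2.75 and 2.56 in irradiated and -1.97, -1.13 and -0.59 in control testes, a change of 3.61 ± 0.19 or 12.2-fold. Prdx2 (1367578_at), a cytosolic form also abundant in red blood cells, had 4.07, 4.09, 3.80, 4.03 and 3.89 in irradiated and 1.67, 1.91 and 2.09 in control testes, a change of 2.08 ± 0.09 (adjusted p = 8.61e-12). For both genes every irradiated array lay above every control array. Of 6 red cell markers, 2 (Hbb and Alas2) rose and 3 fell, with summed signals of 9.12 to 15.2 in irradiated and 3.20 to 5.32 in control arrays. Epb42, Ahsp and Rhag were dim in every array of both groups and Slc4a1 in every irradiated array, and the part of red cells in the Prdx2 change was not tested. Prdx6, which also acts on phospholipid peroxides, rose by 1.71 ± 0.11.

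Prdx4 (1387891_at), the peroxiredoxin of the secretory pathway, had 2.00, 1.67, 1.67, 1.74 and 1.78 in irradiated testes, against 3.16, 3.23 and 3.37 in control testes. These ranges were well apart, and the change was -1.47 ± 0.08, or 2.77-fold lower (adjusted p = 9.94e-11). Prdx5 averaged 1.42 ± 0.21 in irradiated and 1.37 ± 0.08 in control testes and did not pass (0.05 ± 0.09, adjusted p = 0.638).

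Thioredoxin genes rose in 11 of 16 and fell in 2, with a median change of 0.78. Thioredoxin itself, Txn1 (1398839_at), which carries electrons to peroxiredoxins, had 4.61, 4.80, 4.39, 4.45 and 4.22 in irradiated and 0.84, 1.22 and 1.47 in control testes. The groups were separate, with a change of 3.27 ± 0.12 or 9.66-fold (adjusted p = 9.72e-13). Txnip, the protein that binds and inhibits thioredoxin, also rose, by 2.82 ± 0.12. The mitochondrial thioredoxin Txn2 rose by 0.80 ± 0.09.

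The reductases that recharge thioredoxin differed among themselves. Txnrd3 (1373274_at), a thioredoxin and glutathione reductase known from mouse spermatids, had 0.48, 0.28, 0.33, 0.14 and 0.08 in irradiated testes, against 3.50, 3.72 and 3.87 in control testes. All irradiated arrays lay below all control arrays, with a change of -3.45 ± 0.09 (adjusted p = 2.71e-14). Cytosolic Txnrd1 rose by 0.33 ± 0.08 and did not pass after centring or quantile normalization (0.18 and 0.05, adjusted p = 0.0941 and 0.605). Mitochondrial Txnrd2 was at least 1.5-fold higher.

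Among thioredoxin-domain genes, Txndc5 (1371391_at), a disulfide isomerase of the endoplasmic reticulum, had the largest moderated t among those that rose. Its values were 2.50, 2.48, 2.35, 2.51 and 2.39 in irradiated and -0.29, -0.06 and 0.12 in control testes, a change of 2.54 ± 0.09 (adjusted p = 5.19e-13). The groups were separate and each was narrow. Txndc17, Txnl1 and Txndc15 rose by 2.23, 1.07 and 0.94, and Txndc11 and Txndc9 were at least 1.48-fold and 1.29-fold higher. Txnl4b, named for its likeness to a spliceosome protein, was dim in every irradiated array, and its fall (adjusted p = 4.23e-05) can only be bounded, at 1.09-fold or more. With values raised to the array median its change was -0.13 (adjusted p = 0.304), which did not pass. Txnl4a (0.66, adjusted p = 0.0669), Txndc16 (0.23, adjusted p = 0.127) and Txndc12 (-0.10, adjusted p = 0.564) did not pass, although Txndc12 did after quantile normalization (-0.40, adjusted p = 0.00759) and Txndc16 without control replicate 10 (0.28, adjusted p = 0.0466). Txnl4a passed with the array median filter, raised values, the variance trend, and without control replicate 4 or 5 (adjusted p = 0.0307 to 0.0475).

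All 4 superoxide dismutase and catalase genes rose, with a median change of 2.10. Sod3 (1368322_at), the extracellular dismutase, had 3.13, 3.50, 3.31, 3.45 and 3.34 in irradiated and -0.38, 0.26 and 0.46 in control testes, a change of 3.13 ± 0.13 or 8.77-fold (adjusted p = 4e-12). Cat (1367995_at), the peroxisomal catalase, had 2.65, 2.26, 2.40, 2.58 and 2.49 in irradiated and -1.52, -0.67 and -0.28 in control testes, a change of 3.29 ± 0.19 or 9.81-fold. Neither gene's groups overlapped.

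The intracellular dismutases changed less. Sod2 (1370172_at), the mitochondrial manganese enzyme, had 1.67, 1.51, 1.45, 1.64 and 1.66 in irradiated and -0.25, 0.51 and 0.98 in control testes, a change of 1.08 ± 0.17. Sod1 (1367641_at), the cytosolic copper and zinc enzyme, had 3.82, 4.17, 3.57, 3.89 and 3.58 in irradiated and 3.02, 3.21 and 3.38 in control testes, a change of 0.63 ± 0.11 (adjusted p = 9.63e-05). For Sod1 the lowest irradiated array still lay above the highest control array.

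The 2 subunits of glutamate-cysteine ligase, the first step of glutathione synthesis, moved in opposite directions. Gclc (1372523_at), the catalytic subunit, had 0.63, 0.19, 0.51, 0.43 and 0.44 in irradiated and -1.03, -0.83 and -0.49 in control testes, a change of 1.21 ± 0.11 (adjusted p = 9.44e-08). Gclm (1370030_at), the modifier subunit, had -0.22, -0.69, -0.41, -0.51 and -0.17 in irradiated and 0.63, 0.93 and 1.48 in control testes, a change of -1.37 ± 0.14 (adjusted p = 4.24e-07). Both genes had separate groups. Gss (1370365_at), glutathione synthetase, had -0.91, -0.45, -0.45, -0.74 and -0.37 in irradiated and -3.90, -2.54 and -1.39 in control testes, and was at least 1.83-fold higher. Gsr (1369061_at), glutathione reductase, had -1.06, -1.35, -3.00, -1.55 and -2.68 in irradiated and -4.41, -3.27 and -1.71 in control testes. Its groups overlapped, both means lay below the array median, and its call (adjusted p = 0.0176) was lost without control replicates 6, 7 and 8 (adjusted p = 0.0782), without irradiated replicate 1 or 2 (adjusted p = 0.0590 and 0.0502) and with the replicate block (adjusted p = 0.188).

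Nfe2l2 (1367826_at), which encodes Nrf2, had 2.84, 2.77, 2.62, 3.00 and 2.68 in irradiated and 0.37, 0.74 and 1.00 in control testes, a change of 2.08 ± 0.12 or 4.22-fold (adjusted p = 3.49e-10). Nqo1 (1387599_a_at), a quinone reductase and textbook Nrf2 target, had 0.49, 0.35, 0.54, 0.67 and 0.67 in irradiated and -0.95, -0.63 and -0.22 in control testes, a change of 1.17 ± 0.13. Hmox1 (1370080_at), the inducible haem oxygenase, had 1.96, 1.75, 1.68, 1.96 and 1.79 in irradiated and 0.56, 0.76 and 0.90 in control testes, a change of 1.07 ± 0.09. In each of these genes all irradiated arrays lay above all control arrays. Hmox2 (1367903_at), the constitutive haem oxygenase, went the other way, with 0.43, 0.33, 0.02, 0.20 and 0.15 in irradiated and 3.25, 3.41 and 3.63 in control testes. Its change was -3.19 ± 0.09, or 9.11-fold lower (adjusted p = 9.32e-14).

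Metallothioneins, small cysteine-rich proteins that bind zinc and copper, were represented by 2 genes under the symbols chosen. A probe set named Mt1, which those symbols do not include, fell by 1.14 on the log2 scale (adjusted p = 0.00144). Mt3 (1370124_at), known chiefly from brain, had 2.83, 3.07, 2.48, 3.08 and 2.69 in irradiated and 0.88, 1.35 and 1.84 in control testes, a change of 1.48 ± 0.17 (adjusted p = 1.25e-06). Mt2A (1388271_at), the widely expressed form, had 3.63, 3.77, 3.23, 3.64 and 3.75 in irradiated and 4.01, 4.20 and 4.56 in control testes, a change of -0.63 ± 0.12 (adjusted p = 0.000207). Neither gene's groups overlapped. Their promoters, shown above, both hold metal response cores.

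**Figure D3:**
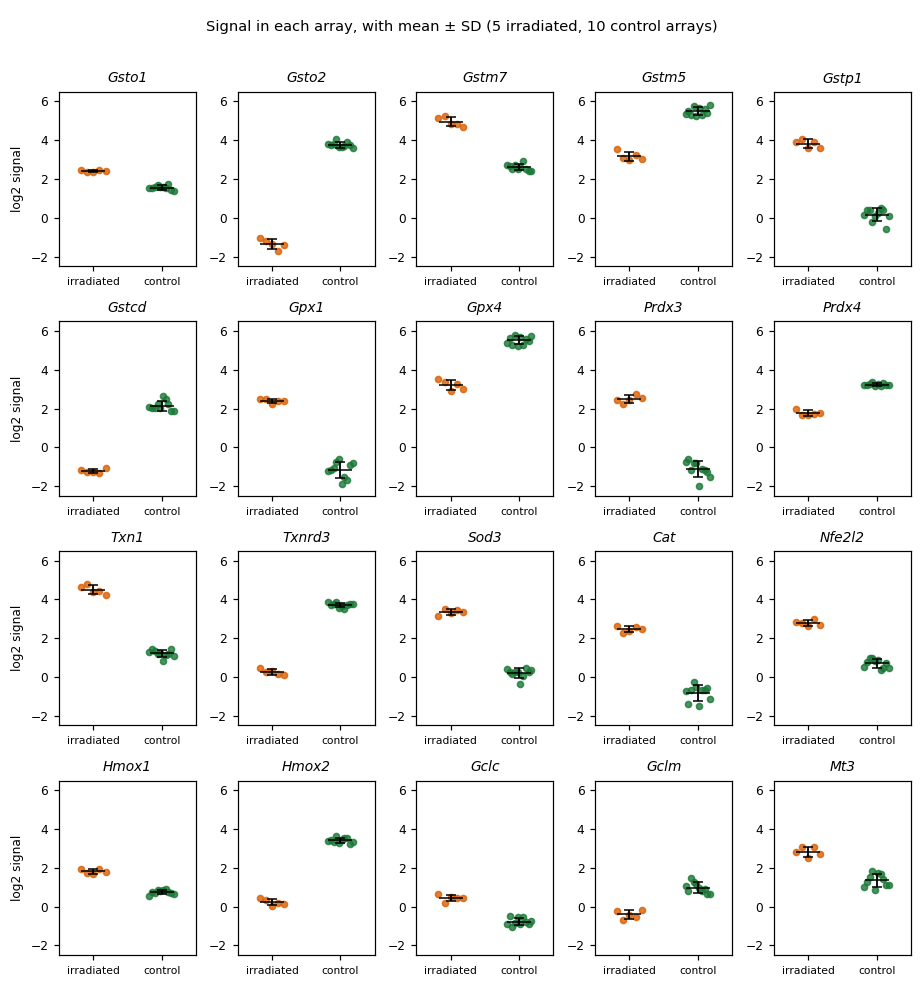
Log2 signal in each of 5 irradiated and 10 control arrays for 20 of the genes, with the mean and SD of each group. The groups do not overlap in any panel, and close relatives run in opposite directions in Gsto1 and Gsto2, Gstm7 and Gstm5, Gpx1 and Gpx4, Prdx3 and Prdx4, Hmox1 and Hmox2, and Gclc and Gclm.

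The rises are set beside those of the somatic marker lists with all signals raised to the array median, an alternative chosen after seeing the data. The median marker change was then 2.29 for Sertoli cells, 3.11 for Leydig cells, 2.21 for macrophages and 1.24 for peritubular cells. Of the 41 genes that rose, 13 exceeded the Sertoli median, 7 the Leydig median, 15 the macrophage median and 21 the peritubular median. As deposited, the macrophage median was 3.60, with 4 of its 8 genes dim in control arrays, and these counts were 15, 8, 4 and 26. How many of all genes that rose on the array exceeded these medians was not counted, so no share stands beside these counts. Gstp1, Gpx1, Gpx8, Prdx3, Txn1, Cat and Sod3 exceeded all 4 medians with raised signals. Only the 21 genes above the peritubular median, the lowest of the 4, exceeded any. Single markers of a list varied widely, with raised Sertoli changes from 0.10 (Rhox5) to 4.39 (Testin). The part of cell composition in the rises, above or below these medians, was not tested.

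Only 5 genes had several probe sets, and 4 of them gave changes of the same sign throughout. Within-array differences between a gene's representative probe set and its others were tested for unequal change, which passed in 1 of 7 such pairs here (limma) and in 55.1% of 6609 pairs over the array. Txnl1 1391789_at, Txnl1 1392058_at and Gstt2 1396468_at had both means below the array median, so their signs carry little. The differences of their pairs had SEs of 0.83, 0.68 and 0.64, so only a large difference could pass. Gpx4 gave both the opposite signs and the pair that passed. Its second probe set (1391529_at) had -1.13, -1.31, -1.14, -1.50 and -1.33 in irradiated and -3.72, -2.38 and -1.24 in control testes. That probe set lay below the array median in 8 of 10 control and 2 of 5 irradiated arrays, and its groups overlapped. Its rise (adjusted p = 0.0250) was 1.14-fold with values raised to the array median. That step alone gives 1.11-fold to any probe set dim in every array, so the size of the rise is not known. With values raised to the array median, the 2 Gpx4 changes differed by -2.48 (adjusted p = 1.58e-10). The deposited values gave -3.38 ± 0.39 (adjusted p = 1.83e-06), which takes the low control signals of the second probe set at face value. RefSeq lists 3 starts for Gpx4, and which transcript each probe set reads was not tested.

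For Txnl1 the probe sets 1380191_s_at and 1368936_at rose by 1.07 and 0.75, and 2 more were dim in every array. Both Gclc probe sets rose (1.21, and at least 2.01-fold in 1370688_at). The second probe set of Gstt2, with both means below the array median (adjusted p = 0.0919), and that of Txnrd1 (0.34, adjusted p = 0.178) did not pass.

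**Figure D4:**
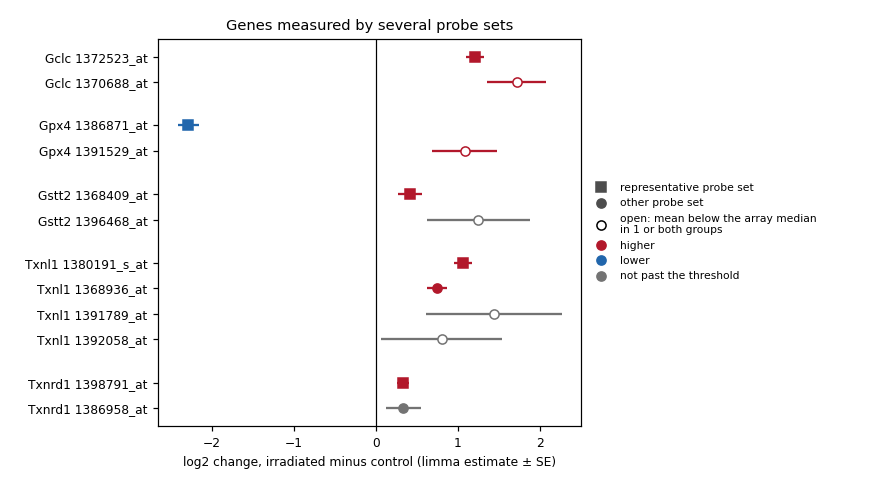
Log2 change (irradiated minus control, limma estimate ± SE) of every probe set of the 5 genes with several. The Gpx4 probe sets lie on opposite sides of 0, the first at -2.29 and the second as an open point with no exact size, and those of the other 4 genes all lie right of 0.

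Genes around the same pathway moved in both directions. Of 66 genes found on the array from 6 lists, 36 rose, 20 fell and 10 did not pass, with a median change of 0.62, beside 40.7% higher, 34.4% lower and a median of 0.08 over all genes. NADPH supply rose in 7 of 7 genes. Of these Taldo1, a pentose phosphate enzyme, had the largest moderated t, was dim in every control array and was at least 4.36-fold higher. In the list of membrane-bound transferases, which also holds Ptges, Alox5ap and Ltc4s, 4 of 6 genes rose, Mgst1 (2.82 ± 0.13) with the largest moderated t. The 4 were Mgst1, Mgst2, Mgst3 and Alox5ap, and Alox5ap was dim in every control array and at least 1.24-fold higher. Thiol repair genes fell in 8 of 14 and rose in 5, with Glrx2, a glutaredoxin, changed by -3.27 ± 0.12 and the methionine sulfoxide reductase Msrb3 by 2.01 ± 0.10. Genes of glutathione use and supply rose in 11 of 19 and fell in 5, with the transporter Abcc5 changed by 1.84 ± 0.12 and Hagh, the second glyoxalase, by -3.25 ± 0.10. Among those that rose, Cth was dim in every array and Chac2 had both means below the array median, so neither rise has a size. Selenoproteins and their synthesis rose in 6 of 12 and fell in 4, with Selenot changed by 1.82 ± 0.11 and Eefsec, the selenocysteine elongation factor, by -1.81 ± 0.10. Nrf2 regulators rose in 3 of 8 and fell in 3, with the autophagy receptor Sqstm1 changed by 2.05 ± 0.09 and the ubiquitin ligase scaffold Cul3 by -1.62 ± 0.09. Keap1, which holds Nrf2 back, is given although its moderated t was not the largest of this list in either direction. It changed by -0.27 (adjusted p = 0.0181), with overlapping groups.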

How the data were processed

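The submitters' processing notes name MAS5, with no version, and the deposited values are log2 signals of 31099 probe sets on 15 arrays. Their scaling and the step that took logs are not stated in the labels or headers. Base 2 was read from the spike-ins, which rose by 0.906 units per doubling in irradiated and 0.884 in control arrays, and the zero point is unknown. Values were used as deposited, and 0 value columns were left unused. Probe sets were named from the platform annotation of 2016. All 70 member identifiers were found in RefSeq with symbols unchanged, and 3 probe sets of these families with several symbols were left out.

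All 31042 probe sets other than 57 controls were fitted with limma 3.58.1 in R 4.3.3 (lmFit, eBayes, 2-sided, no covariate), tested on simulated data, and adjusted by Benjamini-Hochberg over all of them at 0.05. No filter was used, so that each member was tested, and a filter at the array median in 5 arrays was an alternative. A probe set is dim in a group when each of that group's arrays has it under the array median, and folds called "at least" raise each value to its array's median first. The number of arrays limits the precision. Members, families and lists were chosen with earlier results of these data known. Values in each irradiated array, with the lowest, median and highest control values, are given for the genes with the largest moderated t per family and direction, those listed singly, and a few chosen after their values were seen (Gstp1, Gstcd, Gstm5, Prdx3, Txn1). Alternatives were 2 array scalings, 2 filters, values raised to the median, 3 control arrays left out, each array left out, a replicate block, a variance trend and the mean of a gene's probe sets.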

Additional observations from a re-analysis of the deposited data

Results flagged for a closer look

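Dixon's gap test, applied to the 110 groups of arrays in which a gene was not dim throughout, marked 5 single arrays, where chance marks about 1 in 20 groups. Irradiated replicate 3 stood low for Mt2A, at 3.23 against 3.63 to 3.77 in the other irradiated arrays. It also stood low for Gstt1, at -0.17 against 0.23 to 0.36. Irradiated replicate 4 stood low for Gpx8, at 1.40 against 1.78 to 1.88, and irradiated replicate 2 for Gstk1, at 0.13 against 0.28 to 0.33. Control replicate 6 stood low for Sod3, at -0.38 against 0.07 to 0.46. All 5 values lay on the low side, and Mt2A, Gpx8, Gstk1 and Sod3 kept separate groups.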

How the results depend on the processing

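Of the 63 genes, 50 kept their call under each of the 24 alternatives in which they were tested. Direction was compared only where a gene passed, so small changes that did not pass may have switched sign. The counts of genes that rose and fell were 38 and 12 with centring and with quantile normalization, 40 and 12 without control replicates 6, 7 and 8, 47 and 10 with values raised to the array median, 33 and 9 with the 75th percentile filter, and 40 to 42 and 11 to 12 leaving out each array. Replicate numbers 1 to 5 occur in both groups, but same-numbered arrays did not deviate together (correlations -0.02 to 0.06), and with the replicate block the counts were 38 and 12. The median change of the 63 genes was 0.89 with centring, 0.79 with quantile normalization, 0.81 with values raised to the array median and 1.17 with the 75th percentile filter, which left 45 of the genes, and the median change of all genes, 0.08 as deposited, was -0.078 with centring and -0.12 with quantile normalization. That filter, with fewer genes tested, gave 3465 higher and 3010 lower genes, against 5787 and 4896, and 5360 and 4082 probe sets, against 11743 and 9002. Within the families it left 1 lower peroxidase, 1 lower thioredoxin gene and 1 higher gene of glutathione synthesis. Values raised to the array median gave 20803 higher and 5528 lower probe sets, 8351 higher and 3742 lower genes and 1 lower thioredoxin gene. They gave Gpx6, Gsta3, Gsta3l1 and Gstm6l a change of 0.16 each, the difference between the groups' array medians, by construction. These genes are counted among the 47 that rose, and every probe set dim in all arrays likewise counts among the higher ones. Unequal pairs of probe sets, 1 of 7, were 2 with quantile normalization, the array median filter, the replicate block and the variance trend, 3 without control replicates 6, 7 and 8, 4 with raised values and 1 to 2 leaving out each array. Cause of these moves was not tested where not stated.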
